A study of Homo sapiens with 6 samples.

Results

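The core spliceosome was examined as a group of 59 genes, chosen by name, that encode proteins of the small nuclear ribonucleoproteins (snRNPs) and of the complexes that join them during splicing. Every alternative splicing (AS) event listed for these genes with a mean of at least 10 junction reads over the 6 libraries was taken. This gave 284 events in 53 genes, of 66395 events in 10147 genes of the whole series. Another 14 member events were under the read minimum, 1 could not be read unambiguously, and no event was listed for SNRPN, SF3B4, SF3B5, LSM5, LSM6 or CWC22.

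NCI-H1975 is an established human lung adenocarcinoma (LUAD) cell line. The cells received the PCDNA3.1 plasmid without insert (control) or PCDNA3.1 carrying SAM68, an RNA-binding protein of the STAR family, at 2 µg per well, and total RNA was taken after 48 h. Each group had 3 libraries, and all came from this 1 line. The libraries of a group are listed without numbers, so C1 to C3 and S1 to S3 below give only the place in the list. The authors' methods call them biological replicates, without saying how the replicates were kept apart. The p-values measure only the spread between these libraries.

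The spliceosome removes introns from pre-mRNA. The U1 snRNP pairs with the 5ʹ splice site and the U2 snRNP with the branch site, then the U4/U6.U5 tri-snRNP joins, and the PRP19 complex and helicases of the DEAH-box family remodel the assembly for catalysis and release. Each of the U1, U2, U4 and U5 snRNPs holds a ring of Sm proteins, and U6 holds a ring of LSm proteins. Transcripts of several splicing factors are known to carry exons or splice sites whose use brings in a premature stop codon, so that the mRNA is open to nonsense-mediated decay (NMD).

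The sequences that follow show the splice sites and exons that the results turn on, read from hg38 on the strand of the gene, 5ʹ to 3ʹ. The first set holds closely spaced splice sites of deeply read events: the AG of both acceptors is in capitals for SF3B2, BUD31 and LSM7, and the 3 bases between both donors for DDX46. They lie at chr11:66055511-66055543, chr11:66057242-66057274 and chr11:66067922-66067954 (SF3B2, + strand), chr7:99410010-99410042 (BUD31, + strand), chr19:2324187-2324220 (LSM7, - strand) and chr5:134816592-134816614 (DDX46, + strand).
SF3B2 exon 5: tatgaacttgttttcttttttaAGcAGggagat
SF3B2 exon 7: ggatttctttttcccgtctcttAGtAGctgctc
SF3B2 exon 20: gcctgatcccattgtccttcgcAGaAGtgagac
BUD31 exon 2: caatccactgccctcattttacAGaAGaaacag
LSM7 exon 3: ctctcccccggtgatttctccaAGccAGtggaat
DDX46 exon 19: atcgagtctcagGTAttaagtaa

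The second set shows the pair of acceptors of SNRPB on chromosome 20 (- strand), at chr20:2461934-2461963 and chr20:2461788-2461817, with the AG of each in capitals. In GENCODE 44 the upstream acceptor belongs to the canonical transcript with a protein of 231 amino acids (SmB), and the downstream acceptor to a transcript with 240 (SmBʹ).
SNRPB upstream acceptor: ctaaacttcttactcttacttcAGgccttc
SNRPB downstream acceptor: gggattgtctggtttcccttacAGggcccc

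The third set holds exons that are not part of the canonical transcript. For 5 of them the start of the exon is printed up to the first stop codon in the reading frame of the canonical upstream exon, which is in capitals. They start at chr20:2467258-2467315 (SNRPB, - strand), chr17:50737287-50737360 and chr17:50749219-50749244 (LUC7L3, + strand), chr14:45109894-45109980 (PRPF39, + strand) and chr2:85621207-85621234 (USP39, + strand). The exon of LUC7L, at chr16:228313-228422 with 20 bases of intron on each side (- strand), is in capitals as a whole, and it had the lowest p-value of all member events.
SNRPB 124 nt exon: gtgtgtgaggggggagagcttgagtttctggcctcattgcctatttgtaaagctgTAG
LUC7L3 193 nt exon: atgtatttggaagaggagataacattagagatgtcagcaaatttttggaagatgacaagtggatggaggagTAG
LUC7L3 126 nt exon: ggcagaagataagattattggacTGA
PRPF39 100 nt exon: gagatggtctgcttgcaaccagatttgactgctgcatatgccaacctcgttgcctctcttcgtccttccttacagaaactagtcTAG
USP39 120 nt exon: agaaagtgactgcaatggaaagtccTGA
LUC7L 70 nt exon: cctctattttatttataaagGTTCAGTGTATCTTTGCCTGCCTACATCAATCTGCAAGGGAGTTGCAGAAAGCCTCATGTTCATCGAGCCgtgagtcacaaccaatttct

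The skipped exon events of the whole series held 18078820 to 19605499 junction reads per control library and 16921168 to 19701229 per SAM68 library, and the 284 member events held 151549 to 175492. Every pair of libraries differed by more than sampling noise, the chi-square of their gene counts per degree of freedom being 3.14 to 4.54 for libraries of the same group and 4.48 to 6.39 otherwise. S3 stood apart from its group, at 4.54 from S1 and 4.48 from S2, where the other pairs within a group were at 3.14 to 3.56. KHDRBS1, which encodes SAM68, had 311.5, 328.8 and 316.3 reads per 1000000 (rpm) in C1 to C3 and 1232, 1261 and 1277 in S1 to S3, a log2 fold change of 1.98. The rpm of a gene are the junction reads of its most deeply read event over the total of such reads in the library. Of the epithelial keratins, KRT8 had 229.7 to 520.1 rpm and KRT18 471.4 to 530.7 rpm over the 6 libraries. KRT19, EPCAM, EGFR and the markers of other cells (PTPRC, COL1A1 and PECAM1) were not analysed here.

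No splicing event of the core spliceosome passed the test. The percent spliced in (PSI) is the share of the inclusion form after each form was divided by its effective length, and ∆PSI is SAM68 minus control in percentage points. Called events had an adjusted p under 0.05 in the quasi-binomial test (Benjamini-Hochberg, each of the 5 types of event on its own) and an absolute ∆PSI of at least 10 points. Of the 284 member events 0 were called, against 62 of 66395 events (0.0934%) in the series. Without a limit on ∆PSI, 0 member events passed, against 0.259% of the series, and the lowest adjusted p of a member was 0.112. At an unadjusted p under 0.05 there were 24 member events in 15 genes, against 5.95% of all events, and in 25 member events the libraries of both groups did not overlap, against 6.12% of all events with reads in every library. Limma on the logit of PSI called 0 member events and 3 events of the whole series, and unmoderated dispersions called 0 and 2, so that little can be read from these counts of 0. A likelihood ratio test on pooled counts, which ignores the spread between libraries, called 3 member events and 1354 in the series.

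**Figure D1:**
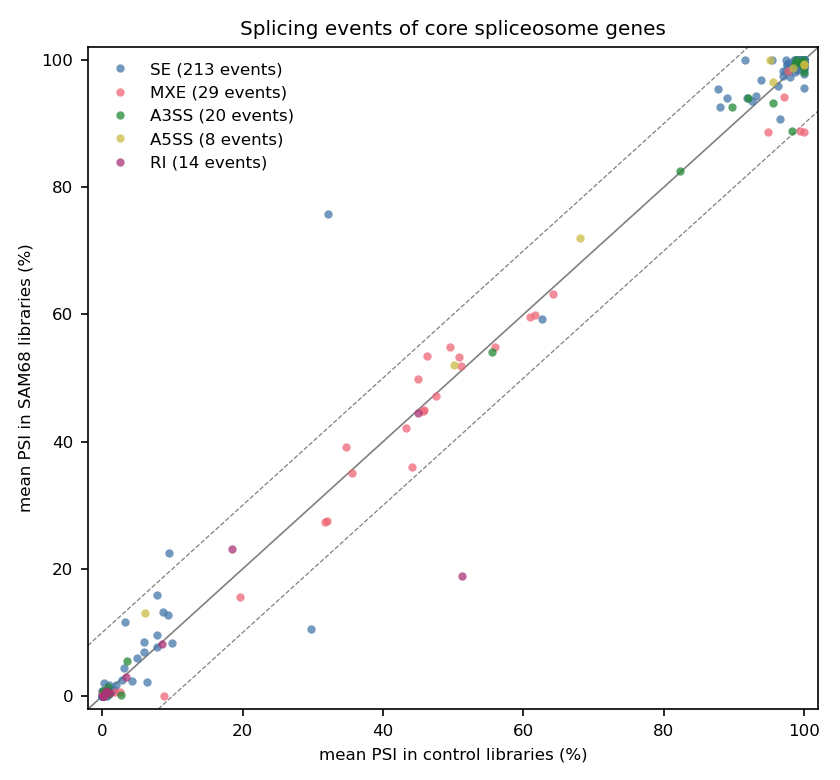
Mean PSI of the 284 events of core spliceosome genes in the 3 SAM68 libraries (y axis, %) against the 3 control libraries (x axis, %), coloured by type of event. The solid line marks equal PSI and the dashed lines a difference of 10 points. Most points sit in the corners, and 6 events differ by at least 10 points, of which none was called.

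Most of these genes were spliced in nearly a single way. In 174 member events (61.3%) the mean PSI was over 95%, against 52.4% of all events, and in 33 (11.6%) it lay between 10% and 90%, against 23.4% of all events. The median absolute ∆PSI was 0.38 points for the members and 1.24 points for all events. The members were also read more deeply, with a median of 353.5 reads per event against 111.3, and the part of depth in the smaller differences was not tested. By role, the events at an unadjusted p under 0.05 were 8 of 53 (15.1%) for the U1 snRNP and U1-associated proteins and 4 of 27 (14.8%) for the Sm core. They were 1 of 60 (1.67%) for the U2 group, 8 of 69 (11.6%) for the tri-snRNP and B complex group, and 3 of 36 (8.33%) for the PRP19 group. The LSm ring had 0 of 22 and the DEAH-box helicases 0 of 17, and the share of all events was 5.95%. Events of 1 gene can share junction reads and are not independent. Of the 24 events, 16 had a form without reads in at least 1 library, and in 16 the rarer form had fewer than 50 reads over the 6 libraries.

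The 6 events that differed by at least 10 points had means of 10 to 54.3 reads. They were the 100 nt exon of PRPF39, a retained intron of LUC7L, the 49 nt exon of DDX46, the 63 nt exon of LUC7L3 and both mutually exclusive exon (MXE) events of LUC7L3. Among all events 7.17% differed by this much, against 2.11% of member events. The DDX46 event had a mean of 10 reads, and its PSI was 4.96%, 42.2% and 42.2% in C1 to C3 and 10.9%, 21.0% and 0% in S1 to S3. The LUC7L intron (996 nt) had a mean of 11.2 reads, with PSI of 75.0%, 55.6% and 23.1% against 40.7%, 15.8% and 0%. In both events the groups overlapped. The DDX46 event and the LUC7L intron were chosen for mention after their values were seen.

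Among the U1 proteins, LUC7L had the member event with the lowest unadjusted p. LUC7L is a homolog of yeast Luc7, which contacts the 5ʹ splice site within the U1 snRNP. The event inserts a 70 nt exon (chromosome 16, 228333 to 228402, - strand), which is absent from the canonical transcript. It is held by 4 GENCODE transcripts, of which 3 read it as coding sequence and end the protein after 55 amino acids. The PSI was 2.20%, 5.09% and 2.53% in C1 to C3 and 12.7%, 8.32% and 13.9% in S1 to S3. The groups did not overlap, and a two-sided exact permutation test gave p = 0.1, the lowest value possible with 3 libraries in each group. The inclusion reads were 4, 11 and 5 in C1 to C3 and 26, 15 and 18 in S1 to S3, beside 73 to 134 skipping reads. The ∆PSI of 8.35 points had an unadjusted p of 0.000585 and did not pass the correction over all skipped exons (adjusted p = 0.198, quasi-binomial test).

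The other LUC7L events among the named ones did not separate the groups. The PSI of exon 3 (99 nt), a coding exon of the canonical transcript, was 92.3%, 90.6% and 96.5% in C1 to C3 and 91.2%, 96.7% and 94.8% in S1 to S3. The MXE event of exons 7 and 8 lay at 53.0%, 64.8% and 65.0% against 63.8%, 48.3% and 66.7%. In these pairs PSI is that of the exon that comes first in the transcript. Of the 29 MXE events of the members, 21 pair exons that the canonical transcript uses both, and 26 pair exons that some single transcript uses both, so that PSI near 50% there does not mean a choice between the exons.

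LUC7L3, another homolog of Luc7, carried 2 well-read exons with a premature stop codon. Each had a low PSI in the event described first and a high PSI beside other neighbours. The 193 nt exon lies between canonical exons 2 and 3, and its stop codon starts at base 72 of the exon. Its PSI was 11.1%, 9.99% and 8.73% in C1 to C3 and 11.2%, 9.63% and 4.42% in S1 to S3, so the groups overlapped (∆PSI -1.54 points, adjusted p = 0.699, quasi-binomial test). The 126 nt exon, with a stop codon from base 24, stayed within 6.68% to 8.33% in all 6 libraries (∆PSI 0.02 points). The exon listed after it in this event is not a canonical exon. Beside other neighbours the mean PSI was 99.5% for the 193 nt exon and 97.8% for the 126 nt exon. These PSI are shares of the junction reads of an event, not of all LUC7L3 transcripts.

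In the MXE events of LUC7L3, the 193 nt exon was set against an exon of 63 nt or 59 nt with a shared end. The PSI of the 193 nt exon against the 59 nt exon was 100% in every control library and 93.4%, 100% and 72.6% in the SAM68 libraries. These values rest on 3, 0 and 6 reads of the 59 nt exon in the SAM68 libraries and 0 in the control libraries. The ∆PSI was -11.3 points (adjusted p = 0.328, quasi-binomial test), and the event with the 63 nt exon, which shares the reads of the 193 nt exon, gave -10.5 points (adjusted p = 0.551). Without S3 these were -3.29 and -2.58 points.

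In PRPF39, the human counterpart of a yeast U1 snRNP protein, the 100 nt exon had the largest ∆PSI of all member events. The exon (chromosome 14, 45109894 to 45109993, + strand) is annotated only in transcripts labelled as targets of NMD, none of which reads it as coding sequence. In the frame carried on from canonical exon 8, a stop codon starts at base 85. The PSI was 54.2%, 29.2% and 13.3% in C1 to C3 and 71.9%, 100% and 55.5% in S1 to S3. All SAM68 values lay above all control values, but the lowest SAM68 library and the highest control library were 1.35 points apart. The group means were 32.2% ± 20.6 and 75.8% ± 22.5 (SD, n = 3 each), on a mean of 27 reads, and the ∆PSI of 43.6 points (53.7 without S3) did not pass the correction (adjusted p = 0.589, quasi-binomial test). The exon's own dispersion was 5.02, over the shared value of 2.296 that the test used. In LUC7L2 the MXE event of exons 8 and 9 ranged from 15.3% to 26.8% in C1 to C3 and from 13.8% to 18.7% in S1 to S3, and the groups overlapped.

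Within the Sm core, the choice of acceptor that gives SmB or SmBʹ was close to even in both groups. SNRPB encodes both proteins, which are part of the Sm ring. The acceptors lie 146 nt apart, and the event was read with a mean of 1800 junction reads. Its reads were among those rebuilt from the deposited levels because a spreadsheet had regrouped their digits. So were those of the alternative acceptor events of SNRPD1 and LSM7 (mean of 1338 reads) described below. The upstream acceptor had a PSI of 56.3%, 55.4% and 55.0% in C1 to C3 and 53.7%, 55.9% and 52.4% in S1 to S3. The groups overlapped, and the ∆PSI was -1.53 points (adjusted p = 0.805, quasi-binomial test; two-sided exact permutation p = 0.3). The 124 nt exon of SNRPB with a stop codon from base 56 was included at 0.25%, 0.36% and 0.33% in C1 to C3 and 0.26%, 0.40% and 0.43% in S1 to S3, on a mean of 3776 reads.

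The 4 Sm core events at an unadjusted p under 0.05 all had a lower PSI in the SAM68 libraries. At this p, 13 member events were higher and 11 lower, and in the series 1959 were higher and 1990 lower. The Sm core events were events of SNRPG, SNRPD1, SNRPD3 and SNRPF, and the largest difference among them was -0.73 points. In each the rarer form had 6 to 28 reads over all libraries.

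In the U2 group the exon 6 of SNRPA1, which encodes the U2 Aʹ protein, was the only event at an unadjusted p under 0.05. Its PSI was 92.4%, 93.9% and 95.1% in C1 to C3 and 97.4%, 95.9% and 97.1% in S1 to S3. The groups did not overlap, the ∆PSI was 3.00 points, and the adjusted p was 0.699 (quasi-binomial test). This event was chosen after its values were seen. The MXE pairs of SF3A3 and SF3B1, subunits of the SF3a and SF3b complexes that hold the branch site, had ∆PSI of 0.89 and -0.82 points, and that of SF3B3, another SF3b subunit, -1.10 points. All of these pairs are used together in the canonical transcript, and the groups overlapped in each.

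Acceptors 3 or 4 nt apart were read in 3 of these genes. The tandem sites were chosen after their values were seen, except LSM7, and they are the first set of sequences above. SF3B2, a subunit of SF3b, has 3 exons with acceptors 3 nt apart, so that either use keeps the reading frame. At exon 5 the upstream acceptor had a PSI of 87.1%, 91.0% and 91.0% in C1 to C3 and 92.7%, 92.3% and 92.9% in S1 to S3. The SAM68 values were all higher and close together, and C1 lay below the other control libraries. The ∆PSI of 2.94 points (1.63 points without C1) did not pass the test (adjusted p = 0.805, quasi-binomial test; two-sided exact permutation p = 0.1). At exon 7 the values were 90.7%, 94.5% and 90.5% against 94.2%, 94.1% and 93.8%, and at exon 20 they ran from 97.9% to 100%. The groups overlapped at exons 7 and 20.

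LSM7, a subunit of the LSm ring of U6, has acceptors 4 nt apart at exon 3, and their alternative use shifts the reading frame. The upstream acceptor, which the canonical transcript uses, had a PSI of 84.1%, 79.4% and 83.5% in C1 to C3 and 81.9%, 84.9% and 80.9% in S1 to S3, on a mean of 1338 reads. The group means differed by 0.22 points (adjusted p = 0.982, quasi-binomial test), and the libraries were interleaved. At the untranslated exon 2 of BUD31, the upstream of a pair of acceptors 3 nt apart had a PSI of 94.1%, 96.2% and 96.2% against 90.7%, 95.6% and 93.1%. In DDX46, a helicase of the U2 step, the longer of a pair of exon 19 ends 3 nt apart had a PSI of 72.8%, 63.0% and 68.3% against 74.4%, 78.0% and 63.3%. GENCODE holds both ends, but in hg38 only the shorter exon is followed by GT, and the longer one by TT.

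In the tri-snRNP and B complex group the events of lowest p were a rare exon of USP39 and a pair of overlapping events of SART1. USP39 is needed for the tri-snRNP to join, and its 120 nt exon (chromosome 2, 85621207 to 85621326) carries a stop codon from base 26. The PSI was 0%, 0.69% and 0% in C1 to C3 and 1.67%, 1.17% and 3.64% in S1 to S3. This is 0, 3 and 0 inclusion reads against 6, 4 and 12, and the groups did not overlap. The ∆PSI of 1.93 points had an adjusted p of 0.457 (quasi-binomial test). A count of 0 allows up to 3 reads, so the control libraries are not shown to lack the exon, and such limits cover counting error only.

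The MXE event of exons 3 and 4 of USP39 had a PSI of 30.5%, 32.6% and 32.2% in C1 to C3 and 28.3%, 27.0% and 27.0% in S1 to S3. The groups did not overlap, with a ∆PSI of -4.32 points (adjusted p = 0.789, quasi-binomial test). The events of SART1, a tri-snRNP protein, had a PSI of 100% in 5 libraries, and C1 alone had 86.3% and 95.6% from the same 14 skipping reads. Without C1 the ∆PSI of both was 0. The MXE pair of exons 11 and 12 of PRPF6, a U5 protein, lay at 46.1%, 49.9% and 52.7% against 50.9%, 56.1% and 57.5%, with overlapping groups and an adjusted p of 0.577 (quasi-binomial test).

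In the PRP19 group the MXE event of exons 14 and 15 of PRPF19 had the lowest adjusted p of all member events. PRPF19 is the ubiquitin ligase that gives the complex its name. The PSI of exon 14 was 46.6%, 45.9% and 46.3% in C1 to C3 and 51.6%, 51.2% and 57.8% in S1 to S3. The control values were within 0.77 points of each other, and S3 stood above the other SAM68 libraries (∆PSI without S3 5.15 points). The ∆PSI was 7.27 points (adjusted p = 0.112, quasi-binomial test; two-sided exact permutation p = 0.1). Both exons are coding exons of the canonical transcript, so the event compares reads from exon 14 with reads from exon 15. The MXE pair of CDC5L had a ∆PSI of -0.89 points with overlapping groups. That of BUD13 lay at 44.3%, 36.3% and 54.2% in C1 to C3 and 50.2%, 52.5% and 46.8% in S1 to S3, with overlapping groups, and its ∆PSI of 4.89 points was 0.58 without C2 and 9.52 without C3. In the LSm ring the MXE pair of LSM2 had a ∆PSI of 4.38 points, with 32.3% to 36.3% in C1 to C3 and 37.3% to 40.1% in S1 to S3.

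**Figure D2:**
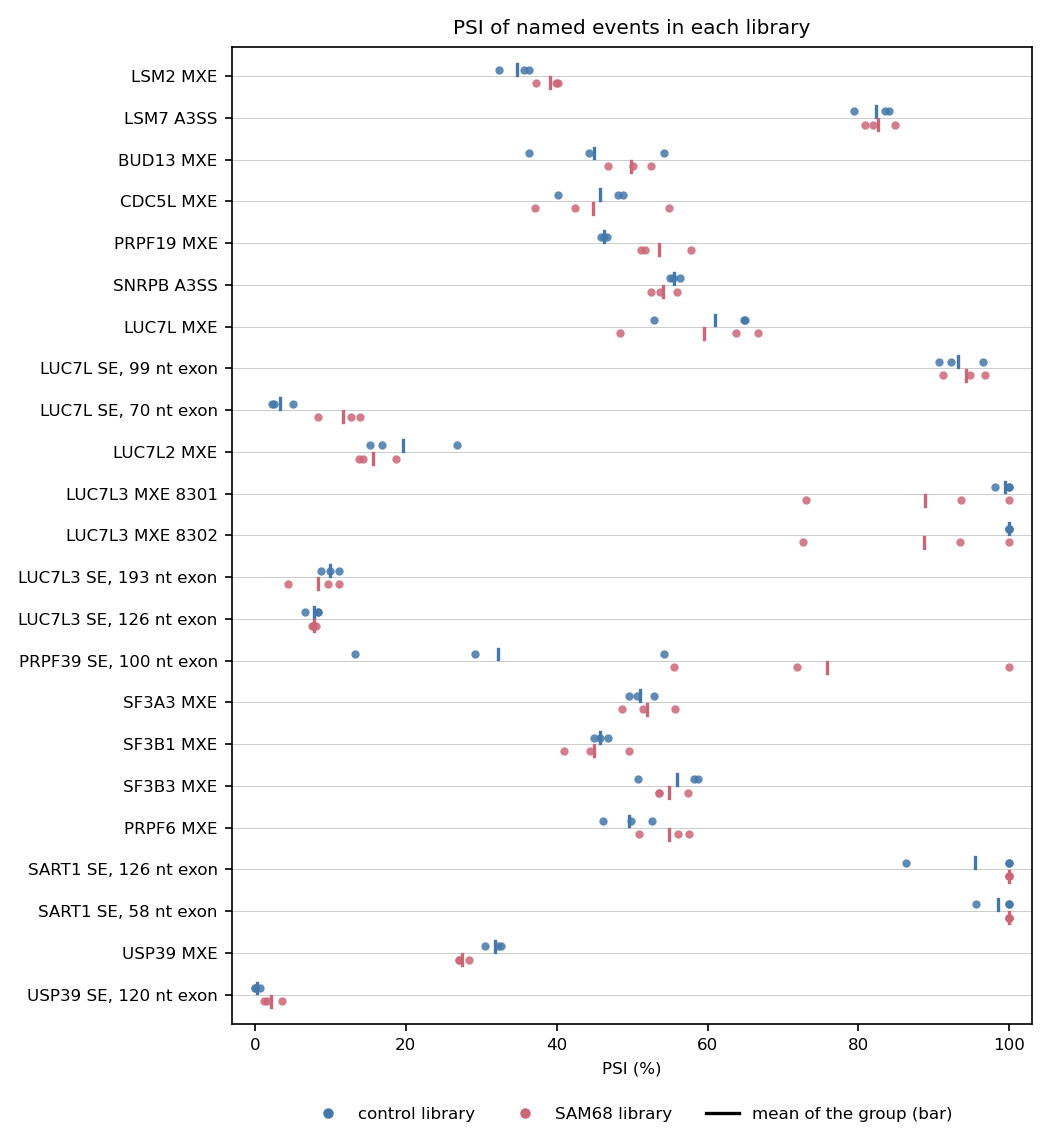
PSI (x axis, %) of the 23 events named by rule, in each of the 3 control and 3 SAM68 libraries (points), with the mean of each group as a bar. SE events are marked by the length of the exon, and LUC7L3 MXE 8301 and 8302 set its 193 nt exon against the 63 and the 59 nt exon. The groups are apart for the 70 nt exon of LUC7L (2.20% to 5.09% against 8.32% to 13.9%) and interleaved for LSM7.

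Exons with an in-frame stop codon that are inserted between neighbouring canonical exons had a low PSI in both groups. Of the 213 skipped exon events of the members, 143 concerned an exon of the canonical transcript, with a median PSI of 99.8% and none under 93.0%. Inserted exons were taken that are absent from the canonical transcript, lie between neighbouring canonical exons, follow coding sequence and hold an in-frame stop codon. This gave 19 exons in 13 genes, and GENCODE assigns 15 of them to transcripts labelled as targets of NMD. Their median PSI was 1.29%, 12 had a PSI under 5%, and 2 reached 10%. The group was defined by sequence and annotation after the values were seen. It leaves out 15 events of exons with an in-frame stop codon whose neighbours in the event are not adjacent canonical exons. Their PSI was 0.05% to 99.9% (median 91.5%). Some are exons of the 19 beside other neighbours. These are the 193 nt exon of LUC7L3 (PSI 99.5%), the 86 nt exon of USP39 (91.5%) and the 160 nt exon of LSM7 (0.05%). Another is a 157 nt form of canonical exon 4 of USP39 (99.9%), whose acceptor had a PSI of 4.56% against the canonical one. Such PSI depend on the event that is read. Also among the 15 are the 100 nt exon of PRPF39 above and a 558 nt exon of DHX8 with a PSI of 92.9%.

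Inclusion of these exons was higher in the SAM68 libraries for 11 and lower for 8, with a median ∆PSI of 0.39 points, beside 0.05 points for all skipped exon events of the members. No exon passed the correction, 3 had an unadjusted p under 0.05 (the 120 nt exon of USP39 and the 63 and 59 nt exons of LUC7L3), against 5.57% of all skipped exon events, and the groups did not overlap in 1, against 2238 of 47450. The 63 and 59 nt exons share an end, all skipping reads and nearly all inclusion reads, so they are 1 observation. The best-read exons with a PSI over 5% were the 193 nt exon of LUC7L3 above and the 86 nt exon of USP39. The latter had a PSI of 4.61%, 5.09% and 8.01% in C1 to C3 and 7.66%, 10.6% and 7.22% in S1 to S3. The 96 nt exon of PRPF3, a tri-snRNP protein, had 8.30%, 7.43% and 7.57% against 7.82%, 12.7% and 8.36%. The 117 nt exon of DDX46 had 6.56%, 5.18% and 3.14% against 6.82%, 8.03% and 3.40%, and the 29 nt exon of SF3B3 3.99%, 8.47% and 5.63% against 3.01%, 7.93% and 10.1%. All of these overlapped between the groups. In SNRNP70, the U1 70K protein, 3 versions of 1 exon with a shared start (60, 72 and 1474 nt) had a PSI of 0.97% to 1.67% as group means, which rest partly on the same reads.

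**Figure D3:**
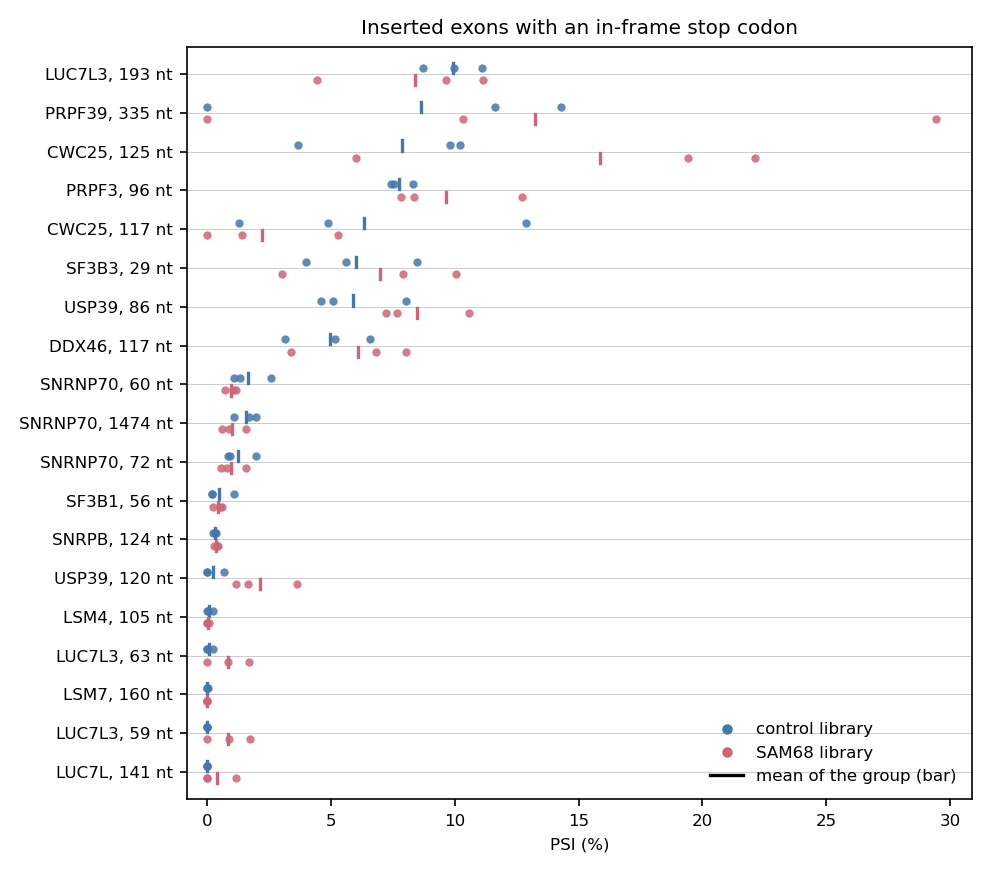
PSI (x axis, %) of the 19 inserted exons with an in-frame stop codon, named by gene and length, in each of the 3 control and 3 SAM68 libraries (points), with the mean of each group as a bar. The groups are apart in the 120 nt exon of USP39 and overlap in the others, and the widest spread belongs to exons of PRPF39 and CWC25 with few reads.

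The SAM68 protein is known to bind RNA rich in UAAA, so TAAA was counted on the strand of the gene in 100 nt of intron on each side of the skipped exons, overlapping matches included. At least 1 match was found beside 132 of 213 member events (62.0%) and beside 59.8% of the 47450 events of the series. The 70 nt exon of LUC7L had 1 match upstream and 1 downstream, and the 100 nt exon of PRPF39 had 2 and 2. The 193 nt exon of LUC7L3 had 5 upstream and 0 downstream, and the 120 nt exon of USP39 had 0 and 0. These matches describe letters only.

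The junction reads per gene showed 1 core spliceosome gene past an adjusted p of 0.05 and none past the limit of a log2 fold change of 1. The test was limma on log2(rpm + 0.5) over 10147 genes with Benjamini-Hochberg adjustment. Of 53 member genes 0 were called, against 5 genes in the series (0.0493%), and at an unadjusted p under 0.05 there were 3 member genes (5.66%: BUD31, LUC7L3 and PRPF39), against 12.1% of all genes. In the bulk RNA of these wells, fewer cells and less RNA per cell cannot be told apart. The log2 fold changes of the members had a median of 0.01 and ran from -0.97 to 0.29, beside a median of -0.03 for all genes. The libraries of both groups did not overlap in 11 of 53 member genes, against 16.8% of all genes.

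BUD31, a protein of the activated spliceosome, was the gene that passed. It had 250.6, 251.2 and 245.6 rpm in C1 to C3 and 298.2, 293.0 and 321.2 rpm in S1 to S3. All SAM68 libraries were higher than all control libraries, and the control libraries were within 5.57 rpm of each other. The log2 fold change reached 0.29 (SE of the fit 0.06, adjusted p = 0.0239, limma), and 0.118% of all genes were higher with an adjusted p under 0.05. The adjusted p was 0.0938 to 0.203 when any one of C1, C2, C3 or S1 was left out. BUD31 lies on chromosome 7 of GRCh38 from 99408641 to 99419616.

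No member gene was lower with an adjusted p under 0.05, against 0.296% of all genes. The most negative log2 fold changes belonged to the U1 proteins LUC7L3 and PRPF39. LUC7L3 had 98.7, 88.4 and 92.4 rpm in C1 to C3 and 66.2, 67.8 and 85.4 rpm in S1 to S3. The groups did not overlap, and S3 lay nearer the control libraries than S1 and S2. This is a log2 fold change of -0.36 (SE of the fit 0.10, adjusted p = 0.103, limma), with an adjusted p of 0.0137 and a log2 fold change of -0.47 without S3. With the sum of all skipped exon events of the gene the adjusted p was 0.0429. PRPF39 had 6.38, 6.05 and 5.53 rpm against 1.74, 2.02 and 5.88, so that S3 was again at the level of the control libraries. Its log2 fold change of -0.97 had a large error (SE of the fit 0.38, adjusted p = 0.265, limma), and it was -1.45 without S3 (adjusted p = 0.0558). The event that stood for PRPF39 is the 100 nt exon above, with a mean of 27 reads, so this count and its PSI share reads. Neither this exon nor the exon listed after it is an exon of the canonical transcript. How far the count follows the main mRNA of PRPF39 was not tested. LUC7L went the other way, with 31.4, 29.6 and 30.5 rpm against 37.4, 35.1 and 34.0 and a log2 fold change of 0.21 (adjusted p = 0.528, limma), and LUC7L2 and SNRNP70 each had a log2 fold change of 0.01.

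In the Sm core the log2 fold changes ran from -0.12 (SNRPB) to 0.12 (SNRPG). SNRPB had 1576, 1147 and 1120 rpm in C1 to C3 and 1145, 1191 and 1161 rpm in S1 to S3, so C1 stood apart, and without C1 its log2 fold change was 0.0401. The keratin KRT8 also stood apart in C1, with 520.1 rpm against 229.7 to 253.3 rpm in the other libraries. In the U2 group the values ran from -0.15 (DDX46) to 0.17 (SNRPB2, the U2 Bʺ protein). In the tri-snRNP and B complex group they ran from -0.09 (PRPF3) to 0.15 (EFTUD2, the GTPase of U5). The LSm ring ran from -0.15 (LSM2) to 0.09 (LSM7), and in both genes the groups did not overlap. The PRP19 group ran from -0.17 (CRNKL1) to 0.29 (BUD31), and the DEAH-box helicases, which include the release factor DHX8, from -0.21 (DHX8) to 0.06 (DHX16). Apart from BUD31, the lowest adjusted p in these groups was 0.428 (limma).

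**Figure D4:**
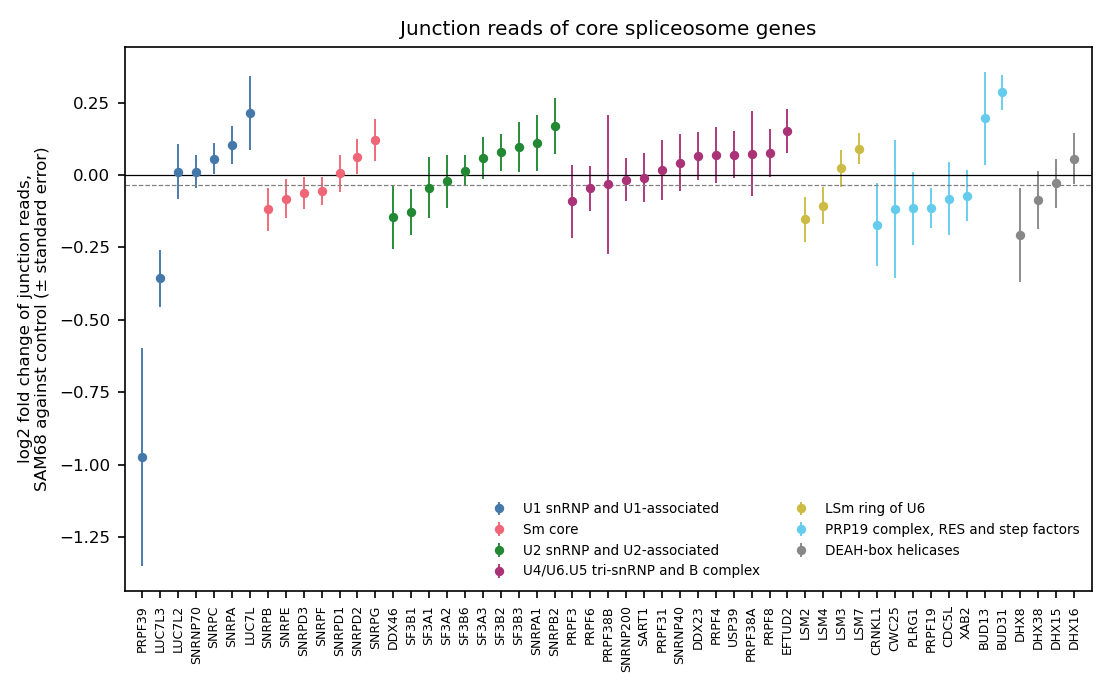
Log2 fold change of junction reads, SAM68 against control, with its standard error, for the 53 genes of the core spliceosome, coloured by role (3 libraries per group). The dashed line is the median of all genes (-0.03), and PRPF39 (-0.97), LUC7L3 (-0.36) and BUD31 (0.29) lie farthest from it. The value of PRPF39 rests on the event of its 100 nt exon, which is not in the canonical transcript.

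**Figure D5:**
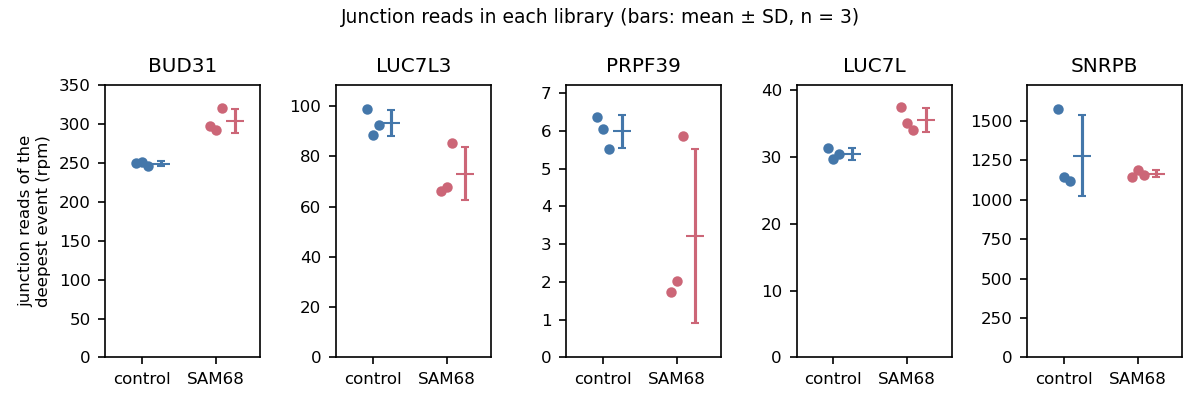
Junction reads of the deepest event of 5 genes in each library (points, rpm, axes from 0), with the mean ± SD of the 3 libraries of a group. The groups are apart for BUD31, LUC7L3 and LUC7L, S3 of PRPF39 (5.88 rpm) lies among the control libraries, and C1 of SNRPB (1576 rpm) lies above all others.

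A list of 47 further genes of the U2, tri-snRNP, PRP19-related and minor spliceosome groups had 44 genes with enough reads. Of these 0 passed an adjusted p of 0.05 in limma and 5 had an unadjusted p under 0.05, against 12.1% of all genes, and the median log2 fold change was 0.00. The lowest adjusted p belonged to PRPF4B, a kinase of the tri-snRNP, with 34.4 rpm in the control and 22.0 rpm in the SAM68 libraries as group means (log2 fold change -0.62, adjusted p = 0.0738, limma). SYF2, a PRP19-related protein, followed with a log2 fold change of -0.35 (adjusted p = 0.0806, limma).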

How the data were processed

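RNA of NCI-H1975 cells was sequenced in 3 control and 3 SAM68 libraries. Per the labels and the submitters' processing notes, the authors used CASAVA 1.4, fastp 0.20.0 and HISAT2 2.1.0 with GRCh38, and their methods name rMATS (version not given in the sources used here). For each of the 5 event types, a deposited table holds lists of 3 raw junction read counts per group and the PSI levels made from them. The tables also hold the p-value, FDR and PSI difference of the authors' own test, which were not used. Group order of the lists was taken from the study's plot of PKM, and in that order KHDRBS1 is higher in the SAM68 list. No column of per-library values was left out (0 unused). Count models had been planned for the reads per gene. They were not run, although the lists can be split into counts, because columns that hold 3 values in each cell were not entered as counts here, and limma took their place.

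In the A3SS table a spreadsheet had regrouped the digits of 275 events, of which 162 were recovered from the deposited levels and 113 left out, and 679 others were taken as printed. PSI, the quasi-binomial test (dispersions moderated with squeezeVar of limma 3.58.1, R 4.3.3, not below 1) and the limma test of log2(rpm + 0.5) were computed over all 66395 events and 10147 genes that averaged 10 reads or more per library. Since all events of a type shared 1 dispersion (2.01 to 2.53), events with a larger spread of their own are tested against too small a spread. The skipped exon table held 16921168 to 19701229 junction reads in each library. Both tests were tested on simulated data.

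The members and gene lists were chosen with earlier results of these data known. Named events were called events, the 5 of lowest p, the 3 best-read events with PSI of 10% to 90% per role group (1 per gene), and at most 4 events each of SNRPB, SNRNP70, LUC7L, LUC7L2, LUC7L3 and PRPF38B with PSI of 5% to 95% and at least 50 reads. Named genes were called genes and the largest rise and fall of each role group. Exon numbers are those of the GENCODE 44 canonical transcript. Alternatives covered the test, the read minimum, the adjustment, length normalization, the pseudocount, scaling and each library left out.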

Additional observations from a re-analysis of the deposited data

How the results depend on the processing

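The count of 0 called member events held under 16 of 17 other settings of test, read minimum, adjustment, PSI limit, PSI formula and omitted library, with 0 to 0 over the omitted libraries. It was 3 when counts were pooled for a likelihood ratio test, which ignores the spread between libraries. Over all events these settings called 2 to 1354. The count of 0 called member genes held under 10 of 11 other settings and became 1 (BUD31) with no limit on the fold change. The PSI difference changed sign or went to 0 when a library was omitted for LSM7 A3SS (-1.26 to 1.10 points), the MXE events of CDC5L (-5.91 to 2.95), SF3A3 (-0.99 to 2.54), SF3B1 (-3.10 to 1.16), SF3B3 (-3.67 to 0.31) and LUC7L (-5.32 to 4.29), both SART1 exons (0 to 6.85 and 0 to 2.21), the 193 nt (-2.92 to 0.45) and 126 nt (-0.53 to 0.29) exons of LUC7L3 and exon 3 of LUC7L (-0.18 to 2.77). It kept its sign but moved by over 1.5 times for SNRPB A3SS (-2.48 to -0.74), the 120 nt exon of USP39 (1.19 to 2.42) and the MXE events of LUC7L2 (-6.21 to -0.46), LUC7L3 (-16.1 to -2.58 and -17.0 to -3.29) and BUD13 (0.58 to 9.52), as did the log2 fold changes of PRPF3, DHX16, DDX46, DHX8, SNRPG and CRNKL1, none of which passed the test. The log2 fold change of SNRPB ran from -0.21 to 0.0401 over the omitted libraries, and that of PRPF3 was 0.0747 with the sum of skipped exon events. Median ratio scaling, chosen after seeing the data, moved the median of all genes from -0.03 to 0.00 and changed no call. The cause was not tested. No paired analysis was possible because the lists carry no replicate numbers. The edgeR and DESeq2 tests and TMM scaling were planned and not run. The depth limits events of few reads most.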
